A study of Mus musculus with 6 samples.

Results

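Weakly used internal exon bins are stretches of a gene that the annotation lists as exon but that few reads cover in normal cells. An exon bin is a piece of annotated exon, cut wherever the exons of different transcripts begin or end, and the bins of a gene are numbered along the chromosome. Bins were taken from units that hold a single gene and at least 5 bins, and whose largest bin averaged 500 reads or more in wt. A bin was kept if it was neither the first nor the last of its unit, averaged 10 reads or more over all libraries, and had a wt level (CPM, reads scaled to library size) below 5% of that of the median bin of its unit. Of 355320 bins, 110920 internal bins passed all but the last condition, and 3320 of these, or 2.99 per 100, passed that too. They lie in 1664 of the 6519 units that could hold one.

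The libraries came from RNA of sorted Lin- c-Kit+ fetal liver cells, the fraction that holds hematopoietic stem and progenitor cells, of C57BL/6 embryos at embryonic day 14.5. The labels name the source as fetal liver cells and the tissue as whole embryo, and the sort is known from the study's methods. Each library is a single embryo. The wt embryos are labelled hnRNPL wild-type with no further allele, and the hnRNP L deficient embryos are labelled hnRNPL Knock-Out. The study gives the latter as VavCre+ hnRNP L fl/fl. In these the Vav promoter drives Cre in blood cells. The study allows that cells with incomplete deletion and some remaining hnRNP L protein were part of its RNA sequencing. A figure legend of the study marks the sequenced wt samples as L fl/fl and does not say whether they carried Cre. If they did not, Cre and the loss of hnRNP L cannot be told apart. The exon bin counts were used from 5 libraries, wt replicates 1 to 3 and hnRNP L deficient replicates 2 and 3, and the gene counts from these and hnRNP L deficient replicate 1, whose exon bins were not analysed here. The embryo numbers of hnRNP L deficient replicates 2 and 3 share their first part, which no wt library with exon bins shares, so that whatever this number stands for and the genotype cannot be told apart. wt replicate 1 and hnRNP L deficient replicate 1 share another first part, and both enter the gene counts.

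hnRNP L is an RNA-binding protein of the nucleus that binds runs of alternating C and A in pre-mRNA. Depending on where it binds, it can favour or block the use of a nearby splice site, and it is best known in blood cells for the variable exons of Cd45. Bins with few reads in normal cells include introns that a few transcripts retain, exons joined at unfavoured splice sites, and the first or last exons of rare transcripts. The change of such bins upon loss of hnRNP L is a question of exon usage, the reads on a bin relative to the other bins of its gene in the same cells. Usage is reported on a log2 scale as hnRNP L deficient against wt.

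The letters of the bins with the smallest p-values show how different they are. They are given from the GENCODE transcripts of GRCm38, on the transcribed strand, with each match to ACAC or CACA in capitals. Ago3 bin 20 is an exon of a processed transcript at chr4:126397956-126398377 on the minus strand with 13 matches in 422 bases. Taok3 bin 9 is in a retained intron at chr5:117185612-117187448 on the plus strand with 35 matches in 1837 bases. Of each of these the 240 bases with the most matches are shown, and of Ank1 bin 52, at chr8:23123306-23123638 on the plus strand with 33 matches in 333 bases, the 30 bases with the most.

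Ago3 bin 20, chr4:126398100-126398339: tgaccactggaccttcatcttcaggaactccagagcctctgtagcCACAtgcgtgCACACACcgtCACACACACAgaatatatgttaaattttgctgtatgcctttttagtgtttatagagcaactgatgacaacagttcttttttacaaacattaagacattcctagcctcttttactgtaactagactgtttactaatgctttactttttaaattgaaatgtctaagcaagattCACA
Taok3 bin 9, chr5:117186317-117186556: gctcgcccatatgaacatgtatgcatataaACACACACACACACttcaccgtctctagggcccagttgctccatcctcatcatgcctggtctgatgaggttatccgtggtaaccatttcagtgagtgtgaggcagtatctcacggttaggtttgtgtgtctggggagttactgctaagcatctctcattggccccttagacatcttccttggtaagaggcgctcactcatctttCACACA
Ank1 bin 52, chr8:23123459-23123488: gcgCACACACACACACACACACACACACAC

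By contrast, Hells bin 8, in a retained intron at chr19:38934508-38935413 on the plus strand, holds 2 in 906 bases.

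Hells bin 8, chr19:38934633-38934872: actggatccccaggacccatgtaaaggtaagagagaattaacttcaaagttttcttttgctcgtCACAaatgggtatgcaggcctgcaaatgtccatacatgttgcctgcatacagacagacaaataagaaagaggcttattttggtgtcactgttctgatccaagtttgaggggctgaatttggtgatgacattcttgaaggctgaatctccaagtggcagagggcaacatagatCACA

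Counts on exon bins summed to between 102176927 and 145043938 per library, where a read can count on several bins. Counts on genes summed to between 55952160 and 76157226. Hnrnpl itself stood at 552, 531 and 528 CPM in the wt libraries. In the libraries of hnRNP L deficient replicates 1 to 3 its level was 242, 288 and 270 CPM (log2 fold change -1.01 ± 0.09 (SE), edgeR adjusted p = 0.00724). The groups did not overlap. The progenitor markers fixed for the sort, Kit, Cd34, Gata2, Myb and Flt3, summed to between 1020 and 1418 CPM in wt and between 822 and 934 CPM in hnRNP L deficient embryos. Of these 5 genes 3 changed. Granulocyte markers (Mpo, Elane and Prtn3) reached 7209 CPM in wt replicate 2, against 531 CPM in the lowest wt library and between 222 and 708 CPM in hnRNP L deficient embryos. Macrophage markers summed to between 13.6 and 79.2 CPM in wt and between 2.50 and 5.96 CPM in hnRNP L deficient cells, and hepatocyte markers to between 104 and 222 CPM and between 20.1 and 68.2 CPM. The part of these cells in the changes of weak bins was not tested, and results are given with and without wt replicate 2 where this matters.

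In wt cells the weak bins had a median of 16.7 reads, with quartiles of 11.3 and 28.7, and a median level of 2.80% of the median bin of their unit, against 106% for all internal bins. These levels follow from the rule. Of the 1664 units, 890 held 1 weak bin, 377 held 2, 173 held 3 and 224 held 4 or more. Weak bins with consecutive numbers made up 23.9% of the total, and 6 shared all 5 read counts with another weak bin of the unit, since 1 read can be counted on several short bins. The weak bins of a unit are therefore not independent of each other.

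The weak bins differed from other internal bins in the kinds of transcript that hold them, but did not share a single kind. The bins were placed on GRCm38 where the unit had the same number of bins in a GENCODE annotation as in the counts, which was so for 47.7% of units and for 2077 weak bins, or 62.6%. Of the placed weak bins, 38.1% lay only in transcripts annotated as retained introns, against 5.37% of the 53348 other placed internal bins. A further 22.5%, against 2.35%, lay only in processed transcripts, which have no annotated reading frame. Protein coding transcripts alone held 23.7% of weak bins and 33.4% of the others, and together with other types they held 11.0% and 57.6%. Transcripts annotated as targets of nonsense-mediated decay alone held 3.18% of weak bins and 0.429% of the others. Only 5.34% of weak bins lay wholly in coding sequence, against 68.5% of the other internal bins, and 83.2% against 27.7% belonged only to first or last exons of transcripts. The weak bins were about as long as the others, with a median of 109 bases against 105, but 11.6% of them against 5.63% had at most 10 bases. Such short bins have few positions at which a read can overlap them. Levels are per bin and not per base.

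**Figure D1:**
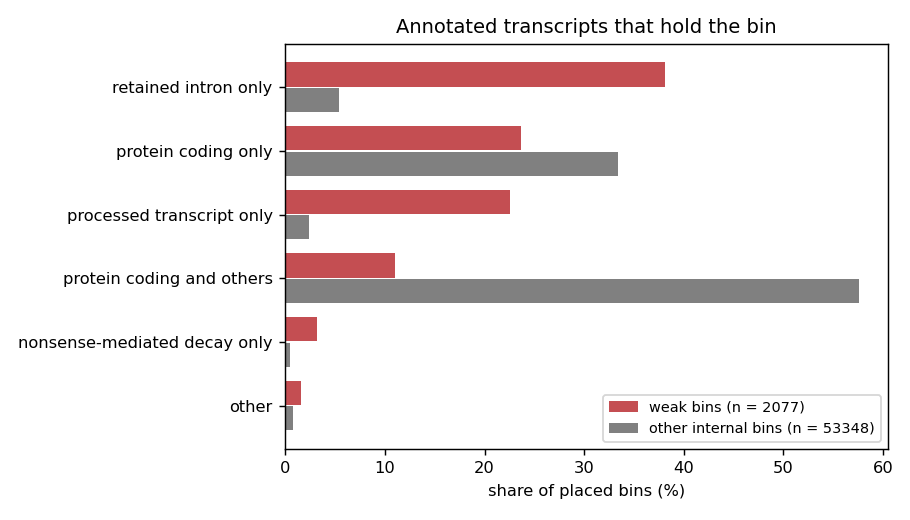
Share of placed bins (%, horizontal axis) by the annotated transcripts that hold them, for 2077 weak bins and 53348 other internal bins. Retained introns alone held 38.1% of weak bins and 5.37% of the others, and protein coding transcripts, alone or with other types, held most of the other internal bins.

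The level of weak bins differed little between libraries. The median weak bin stood at 2.27%, 2.43% and 2.77% of the median bin of its unit in wt replicates 1 to 3 and at 3.12% and 3.13% in hnRNP L deficient replicates 2 and 3. The 2 genotypes did not overlap in this median, but wt replicate 3 lay nearer to both hnRNP L deficient libraries than to wt replicate 1. Weak bins took 0.0757%, 0.0736% and 0.0864% of all bin reads in wt and 0.0993% and 0.101% in hnRNP L deficient cells. Wt replicate 3, with the highest share among the wt libraries, also had the most reads outside annotated genes, with 11.0%, 11.2% and 15.2% of the reads on and outside genes in wt replicates 1 to 3, while hnRNP L deficient replicates 2 and 3 had 12.8% and 12.7%. The part of unspliced or intergenic RNA in the levels was not tested. The classes of transcript moved alike. The 791 bins in retained introns alone had medians of 2.06%, 2.48% and 2.73% in wt and of 3.19% and 3.01% in hnRNP L deficient cells, and the 492 bins in protein coding transcripts alone had 2.41%, 2.25% and 2.64% in wt and 2.95% and 3.06% in hnRNP L deficient cells.

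**Figure D2:**
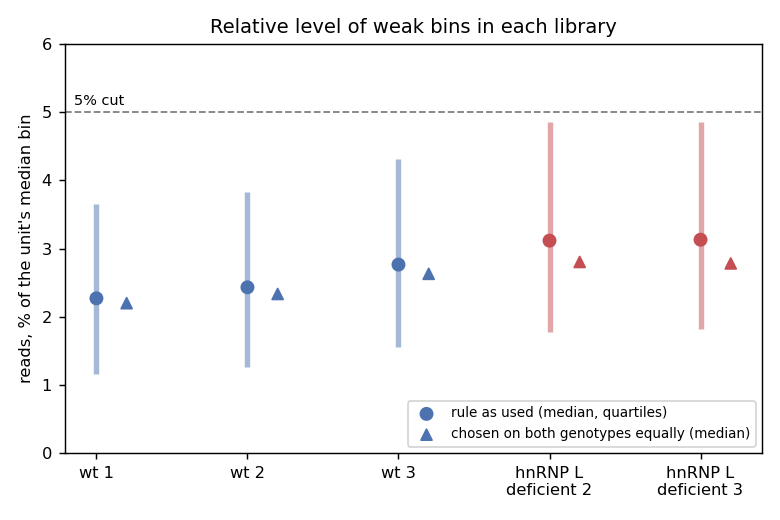
Reads on weak bins as a percentage of the median bin of their unit (vertical axis) in each of the 5 libraries, with circles for the median and bars for the quartiles of the 3320 weak bins, and triangles for the median of the 3047 bins chosen on both genotypes equally. The medians ranged from 2.27% in wt replicate 1 to 3.13% in hnRNP L deficient replicate 3, and reached 2.81% for bins chosen on both genotypes.

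The usage of weak bins shifted slightly upward in hnRNP L deficient cells. The median log2 change was 0.27 over the 3320 weak bins, with 5% of bins below -0.73 and 5% above 1.44, against a median of 0.02 over all 176996 tested bins. Of the weak bins 68.8% had a change above 0, where the background was 54.7% over all tested bins and 57.2% over internal bins that met the unit and read conditions. In 764 weak bins, or 23.0%, both hnRNP L deficient libraries lay above all wt libraries in relative level, against a background of 9.71% (9.57% of internal bins), and in 162, or 4.88%, they lay below, against 10.8% (10.1% of internal bins). These shares cannot be read as an effect on the bins alone, because the rule favours a rise. It takes bins for a low value in wt, and 567 weak bins, or 17.1%, had a wt mean under 10 reads and reached the read minimum only through the hnRNP L deficient libraries.

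The size of the shift depended on which libraries chose the bins. With the read minimum set in wt alone, the median change of the remaining 2753 bins was 0.17. Bins chosen on both genotypes with equal weight (3047) had a median of 0.14, and bins chosen on the hnRNP L deficient libraries by the same rule (3082, of which 2558 were shared) had a median of 0.00. The wt libraries were also held out in turn. When bins were chosen with wt replicates 2 and 3 and the hnRNP L deficient level was set against wt replicate 1, the median log2 difference was 0.26. It was 0.16 against wt replicate 2 and 0.03 against wt replicate 3, with 0.01, -0.02 and 0.00 for internal bins in general. These held-out values are differences in log2 relative level, reads against the median bin of the unit, and not edgeR's change in usage. The wt libraries themselves differed by an SD of 0.14 in the median log2 relative level of weak bins, as much as the median change of the bins chosen on both genotypes.

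**Figure D3:**
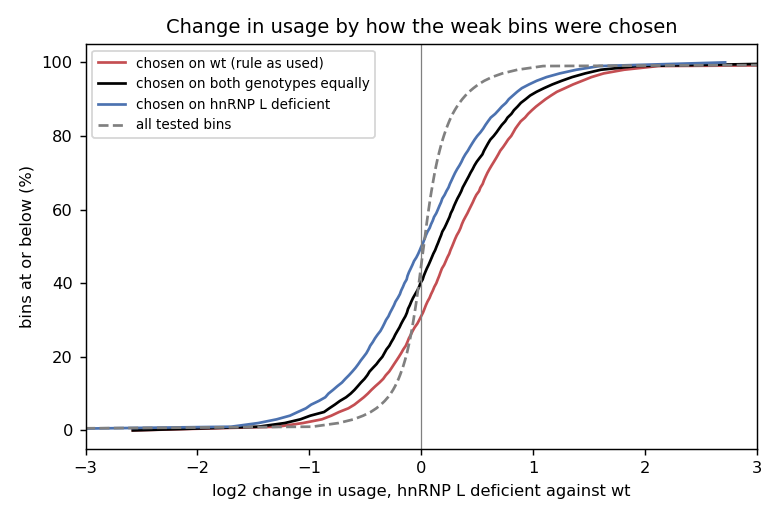
Cumulative share of bins (%, vertical axis) against the log2 change in usage (horizontal axis) for weak bins chosen on wt, on both genotypes equally and on the hnRNP L deficient libraries, and for all tested bins. The curve of the rule as used lies to the right with a median of 0.27, the curve for both genotypes has a median of 0.14, and the curve for hnRNP L deficient libraries crosses 50% at 0.00.

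Single bins rose by much more than this. At an adjusted p under 0.05 in edgeR's exon-level test over all tested bins, 7 weak bins (0.211%) had higher usage, where the background was 0.0186% of all tested bins and 0.0234% of internal bins. Lower usage was called in 0 weak bins, which is near the background of 0.0102% and 0.00451%. At an unadjusted p under 0.05, 188 weak bins were higher and 15 lower, against backgrounds of 0.618% and 0.4% (0.625% and 0.194% of internal bins). The weak bins were 1.88% of the tested bins and 21.2% of those called higher. Described here are 5 of them, in which each wt library stood at or below 4.83% of the median bin and each hnRNP L deficient library at or above 17.9%. None of the 7 was a weak bin when both genotypes chose the bins, which follows from their high level in hnRNP L deficient cells. Without wt replicate 2, 18 weak bins were called higher, against a background of 0.0619%, and without wt replicates 1 or 3 there were 6 each, against 0.0258% and 0.0171%. With only hnRNP L deficient replicate 3 or only replicate 2 left, 1 was called, with backgrounds of 0.00338% and 0.0017%.

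Hells encodes a chromatin remodelling helicase that is needed for DNA methylation. Its bin 8 had 32, 23 and 40 reads in wt and 329 and 417 reads in hnRNP L deficient replicates 2 and 3. Relative to the median bin of the gene these were 3.79%, 3.45% and 4.83% in wt and 32.1% and 36.5% in hnRNP L deficient cells. The groups lay far apart, and the log2 change in usage was 3.15 ± 0.36 (SE, adjusted p = 5.98e-09). The bin joins exon bin 9 directly, and that bin had 1043, 703 and 881 reads in wt and 1068 and 1184 in hnRNP L deficient cells, a log2 change of -0.06. None of the 28 other tested bins of Hells reached an unadjusted p under 0.05. Hells bin 8 was called in each of the 5 fits that left out a library, with log2 changes between 3.01 and 3.32, and by limma and DEXSeq's model too.

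Txn2 encodes the thioredoxin of mitochondria. Its bin 12 had 62, 26 and 44 reads in wt and 296 and 400 in hnRNP L deficient cells, and the log2 change was 2.45 ± 0.24 (adjusted p = 4.73e-06). The bins on both sides, with at least 2170 reads in every library, changed by -0.07 and -0.01. The hnRNP L deficient values lay far above the highest wt value. The unit could not be placed on the genome.

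Tm9sf4 encodes a membrane protein of the endosomal pathway. Bin 18, in an annotated retained intron, had 2, 6 and 15 reads in wt and 90 and 120 in hnRNP L deficient cells, and the log2 change was 3.60 ± 0.39 (adjusted p = 3.99e-05). The adjoining bin 17, between exon bin 16 and bin 18, had 0, 0 and 0 reads in wt and 15 and 32 in hnRNP L deficient cells, and fell below the read minimum. Bin 18 had fewer than 10 reads on average in wt and met the read minimum only through the hnRNP L deficient libraries, and with the minimum set in wt alone 3 of the 7 called bins remained. Exon bins 16 and 19 on both sides of the intron changed by -0.16 and -0.17. The order of read counts along this gene matched the annotated bin lengths only weakly (Spearman's rho 0.17, and 0.10 in reversed order), so that its placement is less certain than that of Hells (0.61 and -0.31).

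Ago3 encodes an Argonaute protein of the RNA interference machinery. Ago3 bin 20 had 0 reads in all 3 wt libraries and 16 and 38 in hnRNP L deficient cells. Set against 3 reads over the wt group, its relative level was at least 16.3-fold higher (adjusted p = 0.00219). The bin met the read minimum only through the hnRNP L deficient libraries, in which it is high, so that it could enter the test only if it differed. It was not called by limma (adjusted p = 0.113) or without wt replicate 3 (adjusted p = 0.287), and was not tested without either hnRNP L deficient library. The median bin of Ago3 itself had as few as 13 reads, so that the relative levels are rough. Its neighbours, bins 19 and 21, changed by 0.04 and -0.11.

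Cep97, which encodes a centriolar protein that restrains the growth of cilia, differed from the other called genes in that 13 of its 18 other tested bins had an unadjusted p under 0.05. Bin 23, 21 bases at chr16:55934834-55934854 on the minus strand next to the annotated start of the gene, had 0, 0 and 1 reads in wt and 36 and 18 in hnRNP L deficient cells (adjusted p = 0.00542). The ratio of relative levels was 41.0, with a 95% counting interval of 7.05 to 1648. This bin too met the read minimum only through the hnRNP L deficient libraries. It was not called by limma (adjusted p = 0.188) or without wt replicate 2 (adjusted p = 0.0992), and was not tested without either hnRNP L deficient library. The start of Cep97 is at its high bin numbers. Bin 12, which lies downstream of these at chr16:55924556-55924679, had 28, 47 and 60 reads in wt and 320 and 379 in hnRNP L deficient cells (log2 change 2.28 ± 0.34, adjusted p = 9.26e-05). Bins 15, 16 and 17 rose by 1.66, 1.74 and 1.63 and were called too. Further downstream, bin 1, the last of the transcript, had 815, 1053 and 1326 reads in wt and 671 and 681 in hnRNP L deficient cells and fell by 1.33 (adjusted p = 0.00176). In total 5 other bins of Cep97 were called, while its gene count did not pass the test, with 32.2, 29.9 and 37.2 CPM in wt and 35.8, 39.2 and 37.3 CPM in hnRNP L deficient cells. The bins other than 23 were chosen after their values were seen.

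**Figure D4:**
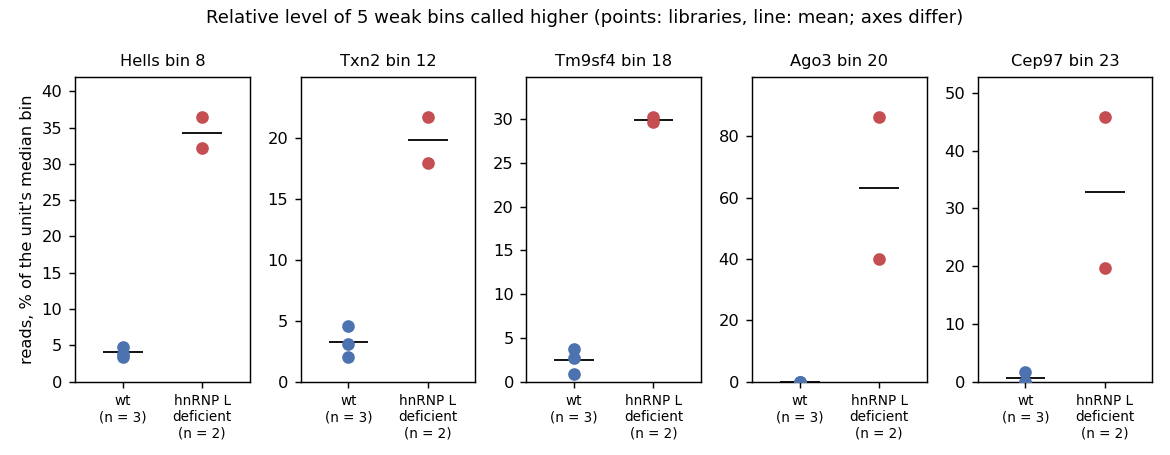
Reads on 5 called weak bins as a percentage of the median bin of its unit (vertical axes, which differ), with points for the 3 wt and 2 hnRNP L deficient libraries and lines for the means. In every gene both hnRNP L deficient libraries lie above all wt libraries. The hnRNP L deficient libraries stand at 40.0% and 86.4% for Ago3 and at 45.9% and 19.7% for Cep97.

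The next 8 bins by p-value were higher as well but did not pass the test. Taok3, which encodes a kinase of stress signalling, had 0, 12 and 3 reads on bin 9 in wt and 53 and 48 in hnRNP L deficient cells (log2 change 3.15 ± 0.72, adjusted p = 0.0877). Ank1 encodes the ankyrin that anchors spectrin in the red cell membrane. Its bin 52 had 3, 1 and 12 reads in wt and 63 and 98 in hnRNP L deficient cells (log2 change 3.80 ± 0.99, adjusted p = 0.292). As placed, this bin is the middle of 3 weak bins that fill the intron between exon bins 50 and 54. The placement of Ank1 is less certain than that of Hells, with a Spearman's rho of 0.30, and of 0.19 in reversed order. Bin 51 had 7, 5 and 18 reads in wt and 36 and 56 in hnRNP L deficient cells, and bin 53 had 9, 2 and 17 and 44 and 68, while the exon bins 50 and 54 changed by 0.04 and -0.02. All 3 lay above wt in both hnRNP L deficient libraries.

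Iars2, which encodes the mitochondrial isoleucyl-tRNA synthetase, also had weak bins on both sides of an exon. Bin 22 of Iars2 had 8, 10 and 23 reads in wt and 50 and 59 in hnRNP L deficient cells (log2 change 2.44 ± 0.47, adjusted p = 0.283), and bin 24 changed by 2.57. The exon bin 23 between them changed by 0.37. The gene count of Iars2 fell by 0.60 on the log2 scale (adjusted p = 0.0159), while bins 22 and 24 had more reads in both hnRNP L deficient libraries. The remaining bins among these were Lsm6 bin 6, Hibch bin 4, Cit bin 51, Pithd1 bin 10 and Prkar1a bin 2, with log2 changes between 2.08 and 3.44 and adjusted p-values between 0.240 and 0.526. The adjusted p-values of these 8 bins depended on the test. DEXSeq's model, fitted with DESeq2, called Prkar1a bin 2 (adjusted p = 3.59e-09), Ank1 bin 52 (8.78e-06), Iars2 bin 22 (8.52e-06), Cit bin 51 (0.000816) and Lsm6 bin 6 (0.00118). limma called Prkar1a bin 2 (0.00117), Hibch bin 4 (0.0181) and Iars2 bin 22 (0.0374).

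A wider set of weak bins, at an unadjusted p under 0.01 and a change of over 2-fold, held 50 higher and 2 lower bins. These are 1.51% and 0.0602% of weak bins, against backgrounds of 0.154% and 0.0921% (0.162% and 0.046% of internal bins). The counts followed the choice of bins, with 18 higher and 2 lower with the read minimum in wt alone, 26 and 3 for bins chosen on both genotypes, and 13 and 9 for bins chosen on the hnRNP L deficient libraries. The 50 bins lay in 46 units and were 18.3% of all tested bins in that class. In the fits that left out a library, the share of all tested bins in this class was not computed. The counts of weak bins there have no background and cannot be read as particular to them. Without wt replicate 2 there were 105 higher and 9 lower, and without wt replicates 1 or 3 there were 86 and 81 higher. With 1 hnRNP L deficient library there were 12 or 10.

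CA-rich letters were not more frequent in weak bins as a whole. ACAC and CACA, counted on the transcribed strand with overlaps, occurred 0.920 times per 100 bases in the placed weak bins and 0.893 times in all 55425 placed internal bins, and 42.8% and 46.3% of bins held at least 1 match. They were denser in weak bins with larger changes in usage. The 624 placed weak bins with a change below 0 held 0.781 per 100 bases, the 1183 with a log2 change of 0 to 1 held 0.878, the 239 with 1 to 2 held 1.12 and the 31 above 2 held 1.89. In the last class 61.3% of bins held a match. Much of this density came from a few bins. The 5 bins with the most matches held 73.0% of those in the class above 2, and 12 of the 31 had none. Without the 5 bins with the most matches in each class, the densities were 0.698 below 0, 0.807 for 0 to 1, 0.896 for 1 to 2 and 0.935 above 2, in the same order but closer together. Weak bins with larger changes were also longer, with a median of 241 bases above 2 and of 94 bases below 0. A high density was not particular to weak bins. At an unadjusted p under 0.01 and over 2-fold higher usage, 74 other placed internal bins held 1.604 matches per 100 bases. Of these 74 bins, 54 held a match. The 31 placed weak bins in that p-value class held 1.888 per 100 bases, and 17 held a match. The 22 other placed internal bins over 2-fold lower held 1.118 per 100 bases. Repeats of this kind can hold reads that align at several places, and the part of alignment in these values was not tested.

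**Figure D5:**
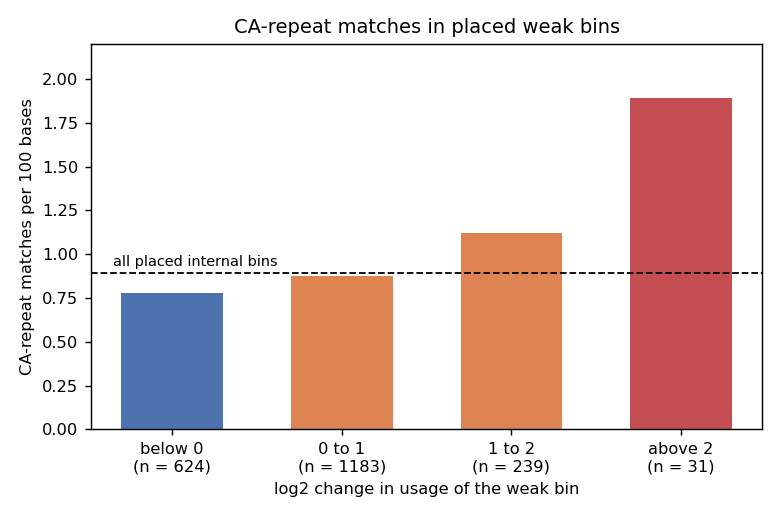
Matches to the pair of CA-repeat letter strings per 100 bases (vertical axis) in placed weak bins, grouped by log2 change in usage (horizontal axis, with the number of bins), with the level of all placed internal bins as a dashed line. The 4 groups stand at 0.781, 0.878, 1.12 and 1.89, and 73.0% of the matches in the last group lie in 5 bins.

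No weak bin was called lower by edgeR or limma. For edgeR this is near the background of 0.0102% of all tested bins and 0.00451% of internal bins. The share of all tested bins called lower by limma or DEXSeq's model is not given here. DEXSeq's model called 2 weak bins lower. One of these is Cops3 bin 20, in a gene for a subunit of the COP9 signalosome. It had 39, 31 and 32 reads in wt and 12 and 10 in hnRNP L deficient cells (log2 change -1.66 ± 0.32). The unadjusted p was 0.0213 in edgeR, larger than this standard error would give, and the adjusted p was 0.0329 in DEXSeq's model. The smallest edgeR p belonged to bin 23 of Pold3, which encodes a subunit of DNA polymerase delta. That bin had 16, 18 and 20 reads in wt and 6 and 0 in hnRNP L deficient cells (log2 change -2.58 ± 0.64, edgeR adjusted p = 1.00). The 8 other bins with the smallest p among those with lower usage were Strn4 bin 37, Smc4 bin 20, Rpl18 bins 21 and 23, Hp1bp3 bin 5, Nsd2 bin 23 and Dnajc2 bins 2 and 3, with log2 changes between -2.45 and -1.50. Dnajc2 bins 2 and 3 have the same reads in all 5 libraries and count as 1 observation. They were placed with 9 and 1 bases. These lengths are uncertain, since read counts along Dnajc2 followed the bin lengths better in reversed order (Spearman's rho 0.32, and 0.48 reversed). In these 2 bins wt replicate 3, with 6 reads, had fewer reads than either hnRNP L deficient library.

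Weak bins were found in each of the lists of splicing genes. For comparison, 1664 of all 6519 units held a weak bin, and 23.0% of all weak bins and 9.71% of all tested bins were higher without overlap. In the core spliceosome list, 27 of the 49 genes that passed the unit rule held 69 weak bins with a median log2 change of 0.16, and 15 of them (21.7%) lay above wt in both hnRNP L deficient libraries. In this list 1 bin passed the test. The SR proteins, which bind exonic enhancers, had 30 weak bins in 8 of 15 genes with a median of 0.21, of which 11 (36.7%) were higher without overlap and 0 passed the test. Srsf10 bin 7, an exon of a processed transcript in a gene for an SR protein, had 8, 7 and 47 reads in wt and 60 and 81 in hnRNP L deficient cells (log2 change 1.51 ± 0.53, unadjusted p = 0.00875). Its wt value was set by replicate 3. The hnRNP and PTB proteins held 43 weak bins in 14 of 20 genes with a median of 0.09, of which 4 (9.30%) were higher without overlap and 0 passed the test. The smallest p among these was that of Hnrnpul1 bin 9, with 7, 7 and 6 reads in wt and 34 and 24 in hnRNP L deficient cells (log2 change 1.91 ± 0.36, unadjusted p = 0.0117). Other splicing regulators held 22 weak bins in 11 of 39 genes with a median of 0.34, 9 of them (40.9%) higher without overlap, among which Khdrbs1 bin 18 had 0, 6 and 7 reads in wt and 20 and 18 in hnRNP L deficient cells. Of the genes of RNA decay, 3 of 16 held 1 weak bin each, and Xrn2 bin 34 had 15, 3 and 19 reads in wt and 3 and 13 in hnRNP L deficient cells.

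Ribosomal protein genes stood highest among the lists by median. They held 72 weak bins in 29 of 64 genes with a median log2 change of 0.54, and 61 of the bins had a change above 0. In 34 bins, or 47.2%, both hnRNP L deficient libraries lay above wt, against 23.0% of all weak bins. No bin of this list passed the test. At an unadjusted p under 0.05 in edgeR, 10 of the 72 were higher and 2 lower. At that threshold 5.66% of all weak bins were higher and 0.452% lower, and 0.618% and 0.4% of all tested bins. Rpl26 bin 5, in a protein of the large subunit, had 147, 134 and 128 reads in wt and 251 and 323 in hnRNP L deficient cells (log2 change 1.08 ± 0.30, unadjusted p = 0.00224), and the short bins 3 and 4 before it had changes of 1.95 and 1.46. Genes of this family have many near-identical copies in the genome, so that the reads on their bins are uncertain.

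Among the other lists, the aminoacyl-tRNA synthetases had 52 weak bins in 15 of 33 genes (median 0.22), and genes of DNA replication and repair had 54 in 24 of 67 genes (median 0.22), of which Hells bin 8 passed the test. Genes of heme, iron and the erythroid skeleton held 33 in 12 of 37 genes with a median of 0.43, and 14 of these (42.4%, against 23.0% of all weak bins and 9.71% of all tested bins), bins 51, 52 and 53 of Ank1 among them, were higher without overlap. The hematopoietic regulators had 13 weak bins in 9 of 42 genes with a median of 0.10. None of these 13 was higher without overlap, against 23.0% of all weak bins and 9.71% of all tested bins. Lower without overlap were 2 of the 13, against 4.88% and 10.8%. With so few bins these counts cannot be read as a trait of the list. Stat5a bin 24 had 17, 5 and 11 reads in wt and 30 and 21 in hnRNP L deficient cells. The chromatin genes had 38 weak bins in 20 of 51 genes with a median of 0.08, of which Brd3 bin 25 had the smallest p, with 2, 12 and 12 reads in wt and 27 and 18 in hnRNP L deficient cells. The p53 pathway held 6 in 5 of 25 genes with a median of 0.50. Mdm4, which encodes an inhibitor of p53, had 7, 4 and 15 reads on bin 13 in wt and 27 and 33 in hnRNP L deficient cells (log2 change 1.46 ± 0.71, unadjusted p = 0.0474).

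In the units with the most weak bins none was called. Hnrnpk, which encodes another hnRNP, had 16 weak bins of 59, with log2 changes from -0.81 to 0.50 and a median of -0.13. Eif4g1, which encodes a scaffold of translation initiation, had 14 of 75 with changes from -0.41 to 1.28 and a median of 0.06, and Vars, the valyl-tRNA synthetase gene, had 11 of 63 with a median of 0.03. None of these 41 bins reached an unadjusted p under 0.05. Bin 5 of Npm1, which encodes an abundant nucleolar protein, had the most reads of any weak bin, with 892, 856 and 949 in wt and 1282 and 1541 in hnRNP L deficient cells. At this depth its level was 3.00%, 3.83% and 3.90% in wt and 3.95% and 4.00% in hnRNP L deficient cells, a log2 change of 0.07 ± 0.24.

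Hnrnpl itself had 3 weak bins. Bin 3 had 29, 39 and 32 reads in wt and 9 and 22 in hnRNP L deficient cells, and its log2 change against the rest of the gene was -0.31 ± 0.41. Bin 5 had 16, 25 and 22 reads in wt and 11 and 20 in hnRNP L deficient cells, a change of 0.37 ± 0.46. Bin 33, of 3 bases, had 4, 28 and 25 reads in wt and 28 and 26 in hnRNP L deficient cells (log2 change 1.38 ± 0.43, adjusted p = 1.00). No weak bin of Hnrnpl passed the test. Near the limit of the rule, the 3 bins just under 5% were Son bin 41, Uhrf2 bin 18 and Nob1 bin 10, with log2 changes of 0.96, -0.17 and -0.16. The 3 bins just above it, Fyttd1 bin 19, Arhgap1 bin 2 and Wac bin 17, had 0.56, 0.62 and -0.09.

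The genes that hold weak bins were more often expressed higher in hnRNP L deficient cells than lower. In the gene counts of all 6 libraries, 317 of the 1664 host genes (19.1%) were called higher and 78 (4.69%) lower by edgeR at an adjusted p under 0.05, against backgrounds of 9.32% and 9.85% over all 14396 tested genes. The 4855 other genes that passed the unit rule had 11.2% and 10.9%. The rule favours this split, because more reads on a gene in hnRNP L deficient cells help its weak bins reach the read minimum. Of the weak bins 567, or 17.1%, reached it only through those libraries. Host genes were not counted for bins chosen with the read minimum in wt alone or on both genotypes. The calls also depended on which libraries were present. Without wt replicate 1, 592 host genes were called higher and 129 lower, and without wt replicate 2 there were 376 and 137. Without wt replicate 3 or any single hnRNP L deficient library 0 were called. The usage of the bins did not follow the gene. The median log2 change in usage was 0.18 for the 640 weak bins of higher host genes, 0.38 for the 138 of lower ones and 0.29 for the 2542 of host genes with no call. Of the 5 hosts of the called bins described here, only Txn2 was called higher (log2 fold change 0.35 ± 0.07, adjusted p = 0.0237), with 258, 233 and 252 CPM in wt and 324, 309 and 316 CPM in hnRNP L deficient cells.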

How the data were processed

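Per the labels and the methods of the study, the authors sequenced stranded mRNA libraries, aligned the reads to GRCm38 (TopHat2 2.0.10), counted them per gene (HTSeq) and per exon bin (the DEXSeq script), and deposited the counts without normalization. The Ensembl release and the options of counting are not given in the sources used here. Overlapping genes form merged units, which were not used as weak bins, and a read can count on several bins. Rows that name no bin or gene held between 31.7% and 53.3% of the counts and stayed out of library sizes and tests.

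All 176996 bins that averaged 10 or more reads were fitted with edgeR 4.0.16 in R 4.3.3 (TMM, robust quasi-likelihood, diffSpliceDGE), comparing hnRNP L deficient replicates 2 and 3 with 3 wt libraries, and p-values were adjusted over all bins by Benjamini-Hochberg. Standard errors are the log2 change divided by the square root of F. For several bins, Txn2 bin 12, Cops3 bin 20 and Hnrnpul1 bin 9 among them, the edgeR p-value is larger than this ratio would give. The standard errors of usage can therefore be too small, and the p-values are the more cautious measure. Relative levels are reads as a percentage of the median bin of the unit in the same library. Genes were tested with glmQLFTest after the default filter, 3 against 3 libraries. Alternatives were limma 3.58.1, DEXSeq's model fitted with DESeq2 1.42.0, other factors, filters, thresholds and rules, and leaving out each library. The steps were tested on simulated data. Counting error was large for bins with under 10 reads in wt. The lowest p of an exact test of 3 against 2 libraries is 0.2, so none was used.

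Bins were rebuilt from GENCODE vM21 and kept where the number of bins agreed. In 93.1% of the 3107 placed units, read counts followed the bin lengths better than in reversed order. The weak bins, gene lists and tests were chosen with earlier results of these data known. The text names the 15 weak bins with the smallest p among those with higher and the 10 among those with lower usage, the one with the smallest p in each gene list, 3 bins on each side of the 5% limit, the weak bin with the most wt reads, those of Hnrnpl, and the 3 units with the most weak bins. Of the 7 called bins 2 are not reported here.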

Additional observations from a re-analysis of the deposited data

How the results depend on the processing

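The count of 7 weak bins with higher usage was 7 without robust estimation, with total counts and with median-of-ratios factors, and 5 with a minimum mean of 1 read. It was 3 with a minimum of 50 reads (443 weak bins tested), 16 with limma and 41 with DEXSeq's model. Over all tested bins, in either direction, edgeR called 0.0288%, limma 0.124% and DEXSeq's model 0.315%. The count of weak bins was 50 at an unadjusted p under 0.01 and over 2-fold, 3 with a limit of 2% and 10 with a limit of 10%. It was 3 with the read minimum in wt alone, and 0 for bins chosen on the hnRNP L deficient libraries or on both genotypes. Between 1 and 18 were called when a library was left out. The count with lower usage was 0, except for 2 with DEXSeq's model and 2 at the unadjusted threshold. The median change stayed between 0.24 and 0.39 without a library, and moved to -0.00032 for bins chosen on the hnRNP L deficient libraries. With wt replicate 3 held out, the median difference in log2 relative level was 0.028, a simpler measure than edgeR's change in usage. The number of weak bins was 1078 with a limit of 2% and 6477 with one of 10%. Host genes called numbered between 0 and 592 higher and between 0 and 137 lower when a library was left out, and stayed within 1.5 times of 317 and 78 with DESeq2, other factors or no filter. The cause of these differences was not tested, apart from the fewer libraries or bins that some settings leave.

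Of 383 repeats for 40 named bins, 347 kept their direction and call, 13 lost the call, 18 gained it and 5 changed direction. Leaving out a library, Nob1 bin 10 ranged from -0.92 to 0.31 and was 0.07 without wt replicate 1, Npm1 bin 5 ranged from -0.023 to 0.12, Hnrnpl bin 3 from -0.99 to 0.16 and Hnrnpl bin 5 from -0.030 to 0.70, all uncalled. Txn2 bin 12 and Tm9sf4 bin 18 lost the call with 1 hnRNP L deficient library, at an adjusted p of up to 0.724, where the lone library is assumed to vary like wt. The fits that left out a library and counted changes at an unadjusted p were chosen after seeing the data. No paired analysis was possible because the replicate numbers were given in accession order and only name the samples, and the embryo numbers share their first part across genotypes for 1 pair of libraries only, 1 of which has no exon bins here.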
